A study of Mus musculus with 6 samples.

Results

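The Krüppel-like factors are a family of transcription factors, and 10 of them (Klf2, Klf3, Klf4, Klf6, Klf9, Klf10, Klf11, Klf12, Klf13 and Klf15) were followed here in mouse liver by every probe set of the array whose single annotated gene symbol was one of these names. This gave 33 probe sets out of 34945 with a single symbol, and the 10 genes were among 18193 genes named on the array. Liver RNA from 6 male mice was hybridized to Affymetrix arrays, 1 array per mouse. The WT group held 3 wild type mice and the ChLO group 3 mice with a liver-specific knockout of Chrebp, made by crossing Chrebp-floxed mice to an albumin-Cre line. The albumin promoter drives Cre mainly in hepatocytes. How far the gene stayed intact in the other cells of the liver, bile duct cells included, was not measured here. All 6 mice were 12 weeks of age and had eaten a diet of 60% sucrose for 1 week. The labels name no strain and do not say whether the WT mice carried floxed alleles or Cre. Each array comes from a separate animal, since the titles number the livers as biological replicates, so the spread within a group is a spread between mice.

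Krüppel-like factors carry C2H2 zinc fingers at the C-terminus that bind GC-rich and CACCC sequences, and differ in the rest of the protein, which recruits activators or repressors. One branch, with Klf9, Klf10, Klf11 and Klf13, recruits the Sin3 corepressor, another, with Klf3 and Klf12, recruits the CtBP corepressors, and the last, with Klf2, Klf4 and Klf6, mostly activates. In liver, Klf10 is a textbook target of ChREBP (the carbohydrate-responsive factor encoded by Chrebp, now named Mlxipl) and of the circadian clock, and Klf15 promotes amino acid breakdown and glucose production in fasting. The comparison of ChLO with WT asks which of these factors depend on ChREBP in a liver that is loaded with sucrose.

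Promoters of 9 of the 10 genes, all but Klf10, were matched by symbol in RefSeq (GRCm38.p6), as 250 bases before and 50 bases after the start of transcription. The hexamer CACGTG, which reads the same on both strands and forms the core of elements bound by ChREBP and by clock factors, lay in 4 of these 9 windows (Klf4, Klf6, Klf11 and Klf15), against 7.15% of all 32851 windows of 300 bases. The sites that lie wholly before the start are shown with 12 bases on either side, so that the shared core (capitals) and the unlike flanks can be compared.
Klf4, 182 bases before the start, chr4:55532640-55532669, minus strand: cgcccccgccccCACGTGcgcggagtttgt
Klf6, 43 bases before the start, chr13:5861434-5861463, plus strand: ctccaagctggtCACGTGgggggagaaggg
Klf11, 214 bases before the start, chr12:24651145-24651174, plus strand: cccggaccaaaaCACGTGccgccgcccgcc
Klf15, 228 bases before the start, chr6:90462336-90462365, plus strand: ctcccgaggtccCACGTGgtctgcacttcg
Klf15, 172 bases before the start, chr6:90462392-90462421, plus strand: tagaacccgtctCACGTGcgcatcggagga
Klf15 held a further copy that begins 3 bases before the start, the only one of the 9 windows with more than 1 match. The full carbohydrate response element, in which a pair of E-box-like sites is set apart by a short spacer, was in 0 of the 9 windows and in 0.0274% of all windows.

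The GC box GGGCGG (read on both strands) was in 7 of the 9 windows against 35.7% of all windows, and the KLF box CACCC (both strands) in 6 of the 9 against 57.5%. Apart from Klf12, at 45.7%, these windows were rich in G and C, from 63.0% in Klf6 to 77.7% in Klf11. Base composition alone moves the share of such matches. The 250 bases before the start are shown for the member that was highest in ChLO relative to WT (Klf6) and for the member measured by 7 probe sets past the filter, the most of the 10 (Klf9), with each complete match to the E-box hexamer, the GC box or the KLF box in capitals.
Klf6, chr13:5861239-5861488, plus strand: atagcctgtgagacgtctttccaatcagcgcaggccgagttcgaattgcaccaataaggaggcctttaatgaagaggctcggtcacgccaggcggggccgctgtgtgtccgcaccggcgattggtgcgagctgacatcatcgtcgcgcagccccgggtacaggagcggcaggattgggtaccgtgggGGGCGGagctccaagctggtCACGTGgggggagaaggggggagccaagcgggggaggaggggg
Klf9, chr19:23140976-23141225, plus strand: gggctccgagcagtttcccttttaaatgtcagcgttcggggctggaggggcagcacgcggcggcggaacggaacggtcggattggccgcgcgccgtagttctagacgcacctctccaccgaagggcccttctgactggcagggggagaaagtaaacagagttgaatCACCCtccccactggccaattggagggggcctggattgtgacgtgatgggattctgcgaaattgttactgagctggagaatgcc
In Klf6 a GC box and the CACGTG stand close together near the start, whereas Klf9 holds neither and has a single KLF box.

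Signals were MAS5 values on the log2 scale, scaled so that every array has the same trimmed mean, and array medians lay between 6.38 and 6.60. Mlxipl, the deleted gene, read 12.61, 12.56 and 12.59 in WT 1, 2 and 3 and 10.34, 11.22 and 11.48 in ChLO 1, 2 and 3, a difference of -1.57 (SE 0.28). All 10 factors had a probe set above the filter on dim signals (a mean log2 signal of 5.50 over all 6 arrays), and 29 of the 33 probe sets passed it. The 4 that did not belong to Klf3, Klf12 (2 probe sets) and Klf13, genes that were represented by brighter ones. The markers of hepatocytes were all far above the filter (F9, the dimmest of 12, had a mean of 13.18). All 12 were lower in ChLO, 2 at an unadjusted p under 0.05, and relative to the WT mean their median was -0.45, -0.41 and -0.18 in ChLO 1, 2 and 3. Their summed linear signal was 488260 to 553484 in WT and 378136 to 475652 in ChLO, and its part in the results was not tested. In RNA from whole liver, fewer cells of a type and less RNA per cell cannot be told apart.

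Klf10 had the smallest p of the 10 factors, and it was lower in every ChLO liver than in any WT liver. It was one of 5 members with a lower mean in ChLO, while 5 had a higher one, and the median difference over the 10 was -0.05, beside 0.06 over all 12598 genes tested. With limma and Benjamini-Hochberg adjustment over all genes, 0 members had an adjusted p under 0.05, where 0% of all genes did. At an unadjusted p under 0.05, 1 member was lower (Klf10) and 1 higher (Klf6), beside 3.5% and 5.46% of all genes. The groups did not overlap for 2 members that were lower (Klf10 and Klf13) and for 0 that were higher, beside 6.19% and 9.04% of all genes. For the 8 members other than these, Klf6 included, the genotypes overlapped.

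**Figure D1:**
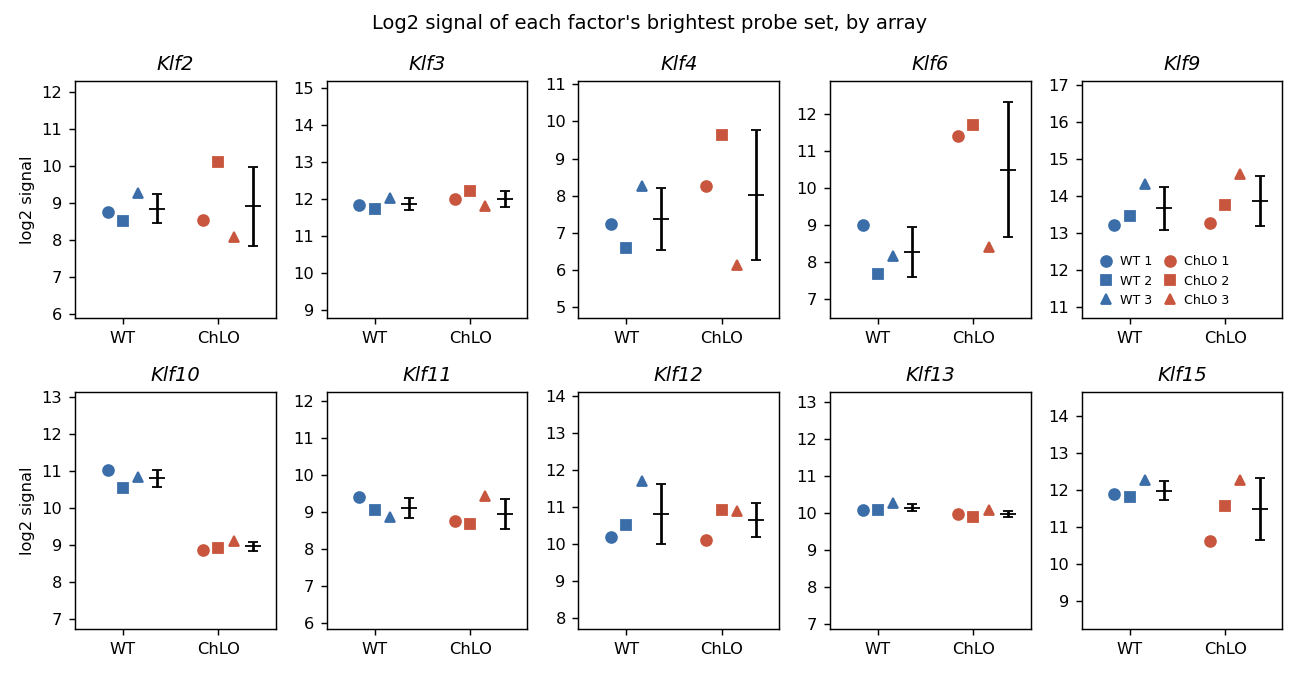
Log2 signal (vertical axis) of the brightest probe set of each of the 10 factors on the 3 WT (blue) and 3 ChLO (red) arrays, with marker shape for the replicate number and the mean ± SD of the group beside the points. Every panel spans the same number of log2 units. Klf10 read 8.86 to 9.11 in ChLO, below the lowest WT array at 10.54, and Klf6 was high in ChLO 1 and ChLO 2 but not in ChLO 3.

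Among the factors of the Sin3 branch, Klf10, a repressor first known as a gene induced early by TGF-beta, read 11.01, 10.54 and 10.82 in WT 1, 2 and 3. In ChLO 1, 2 and 3 it read 8.86, 8.91 and 9.11. The ChLO livers were thus close to one another (SD 0.13, n = 3) and so were the WT livers (SD 0.24, n = 3), with a gap of more than 1 log2 unit between them. The difference was -1.83 (SE 0.19, 95% interval -2.27 to -1.40), a 3.57-fold lower signal. It had the second smallest p of all 12598 genes (1.23e-05) and a limma adjusted p of 0.0528, just above the threshold of 0.05 and so not called. When each of the 29 probe sets was tested in its own right among 27022, the adjusted p of the single Klf10 probe set was 0.0415, beside 0.0296% of probe sets called. Klf10 was lower with no overlap whichever array was left out, between -1.96 and -1.72, and passed without ChLO 3 (adjusted p = 0.0134), where 0.802% of all genes were called lower. It did not pass when any other array was left out, with a limma adjusted p from 0.068 without ChLO 1 to 0.322 without WT 2. With limma run without the variance trend the adjusted p was 0.174. The number of probe sets limits this reading, since Klf10 has only 1 and no second one to set beside it.

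Klf11, the closest relative of Klf10 and likewise induced by TGF-beta, read 9.39, 9.06 and 8.85 in WT and 8.76, 8.66 and 9.42 in ChLO. ChLO 3 was the highest and ChLO 2 the lowest of all 6 arrays, so the groups overlapped. The difference of -0.16 (SE 0.27) had a 95% interval from -0.77 to 0.46, which does not reach the value of Klf10. The difference between the responses of Klf10 and Klf11 was not tested.

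Klf13, a broadly expressed repressor, read 10.07, 10.08 and 10.25 in WT and 9.96, 9.88 and 10.06 in ChLO. The groups did not overlap, yet by a margin of less than 0.01 between WT 1 and ChLO 3, and the difference was only -0.17 (SE 0.16, adjusted p = 0.749). A second probe set, of nearly the same brightness, overlapped and differed by -0.03 (SE 0.21). With the arrays set to equal medians or to the spike-in controls the groups overlapped on the first as well.

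Klf9, induced by glucocorticoid and thyroid hormone, was measured by 7 probe sets, more than most members. The brightest read 13.21, 13.45 and 14.33 in WT 1, 2 and 3 and 13.26, 13.76 and 14.59 in ChLO 1, 2 and 3. Both genotypes covered the same span, and the difference of 0.21 (SE 0.40) lay within it. Of the 7 probe sets, 5 were higher and 2 lower in ChLO, from -0.21 to 0.44, and 0 had an unadjusted p under 0.05. Within each genotype the arrays kept much the same order across probe sets: WT 3 was the highest WT array on 6 of the 7 probe sets and ChLO 3 the highest ChLO array on all 7. The probe sets read the same gene, so they repeat the measurement and not the animals. With 1 array per mouse, mouse, array and harvest cannot be told apart.

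**Figure D2:**
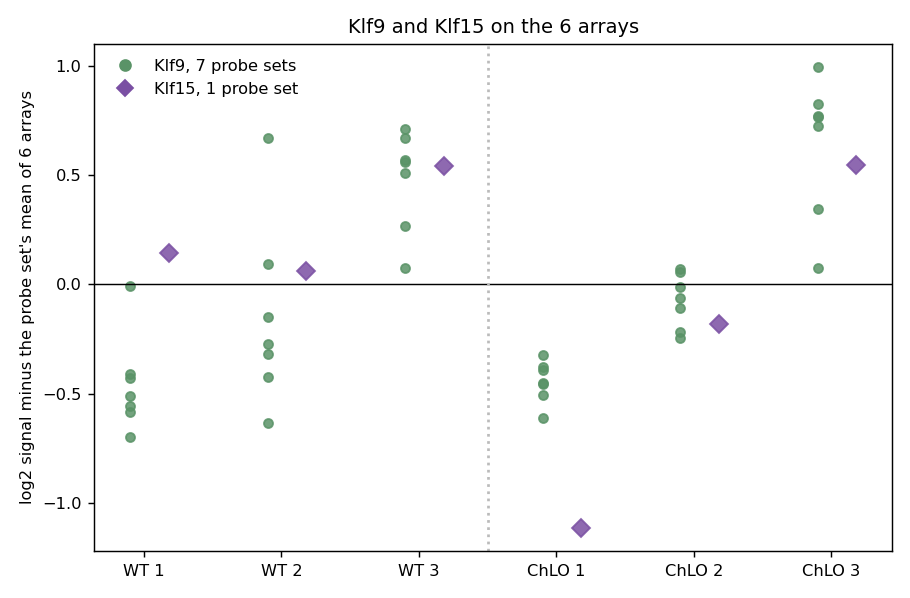
Log2 signal of the 7 Klf9 probe sets (green circles) and the Klf15 probe set (purple diamonds) minus each probe set's own mean over the 6 arrays, with 1 column per array. Points above 0 are arrays brighter than the mean of that probe set. WT 3 and ChLO 3 lie high for both genes, and ChLO 1 is the lowest array for Klf15, at 10.63.

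Klf15, which belongs to no corepressor branch and is known for driving amino acid breakdown in fasting, read 11.88, 11.80 and 12.28 in WT. In ChLO 1, 2 and 3 it read 10.63, 11.56 and 12.29. ChLO 1 and ChLO 2 lay below every WT liver while ChLO 3 matched the highest, so the groups overlapped, with a difference of -0.50 (SE 0.38, 95% interval -1.39 to 0.39, adjusted p = 0.703). Without ChLO 3 the difference was -0.90 and without ChLO 1 it was -0.07, so a single liver at either end set its size. By the root mean square distance between centred log2 profiles, the member nearest to Klf15 was Klf9, at 0.43. Dbp, a clock output factor named here after its values were seen, also had its lowest reading in ChLO 1 (11.45) and its highest in ChLO 3 (13.38), against 12.31, 12.86 and 13.13 in WT. The labels give no hour at which the mice were killed, and its part in these levels was not tested. Klf15, like Klf11, Klf6 and Klf4, holds a CACGTG in the promoter sequence shown above, and these 4 factors had differences of -0.50, -0.16, 2.21 and 0.65.

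The enzymes of amino acid breakdown, which Klf15 is known to promote, were mostly lower in the same pair of ChLO livers. Of 18 tested, 14 were lower and 4 higher, with a median of -0.34, and at an unadjusted p under 0.05 there was 1 in each direction. By array, their median relative to WT was -0.66 and -0.43 in ChLO 1 and ChLO 2 and 0.13 in ChLO 3. Asl, argininosuccinate lyase of the urea cycle, read 13.06, 13.81 and 13.40 in WT and 11.92, 11.93 and 13.45 in ChLO (-0.99, SE 0.42). Gpt, alanine aminotransferase, went the other way at 0.50 (SE 0.21). Among the ChLO livers, ChLO 1 was lowest and ChLO 3 highest for this list, as for Klf15. Over all arrays the list median was highest in WT 2, at 0.23. The medians of gluconeogenesis (-1.01, -0.52 and -0.09), of clock genes (-0.62, -0.20 and -0.05) and of hepatocyte markers (-0.45, -0.41 and -0.18) stood in the same order. The amino acid and hepatocyte lists share Tat and Cps1, so they are not fully separate. The part of the hepatocyte signal in the Klf15 values was not tested.

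In the CtBP branch neither member had an unadjusted p under 0.05. Klf3, a repressor, read 11.83, 11.74 and 12.04 in WT and 12.01, 12.23 and 11.80 in ChLO. Its difference of 0.14 (SE 0.18) had a 95% interval of -0.26 to 0.55. Of 7 probe sets, 6 passed the filter, all of them higher in ChLO by 0.02 to 0.45 and 0 with an unadjusted p under 0.05. The remaining probe set was too dim to be tested (mean 4.88), with a difference of -1.92.

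Klf12, a repressor first described on the AP-2 alpha gene, read 10.18, 10.51 and 11.71 in WT and 10.10, 10.92 and 10.90 in ChLO. WT livers alone spanned more than 1 log2 unit. The difference was -0.16 (SE 0.41) on the brightest probe set, and all 3 past the filter were lower, by -0.42 to -0.16. Leaving out WT 3 turned the sign (0.30). By the same distance as above, Klf12 and Klf9 were each other's nearest members, at 0.33, both being low in WT 1 and ChLO 1.

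**Figure D3:**
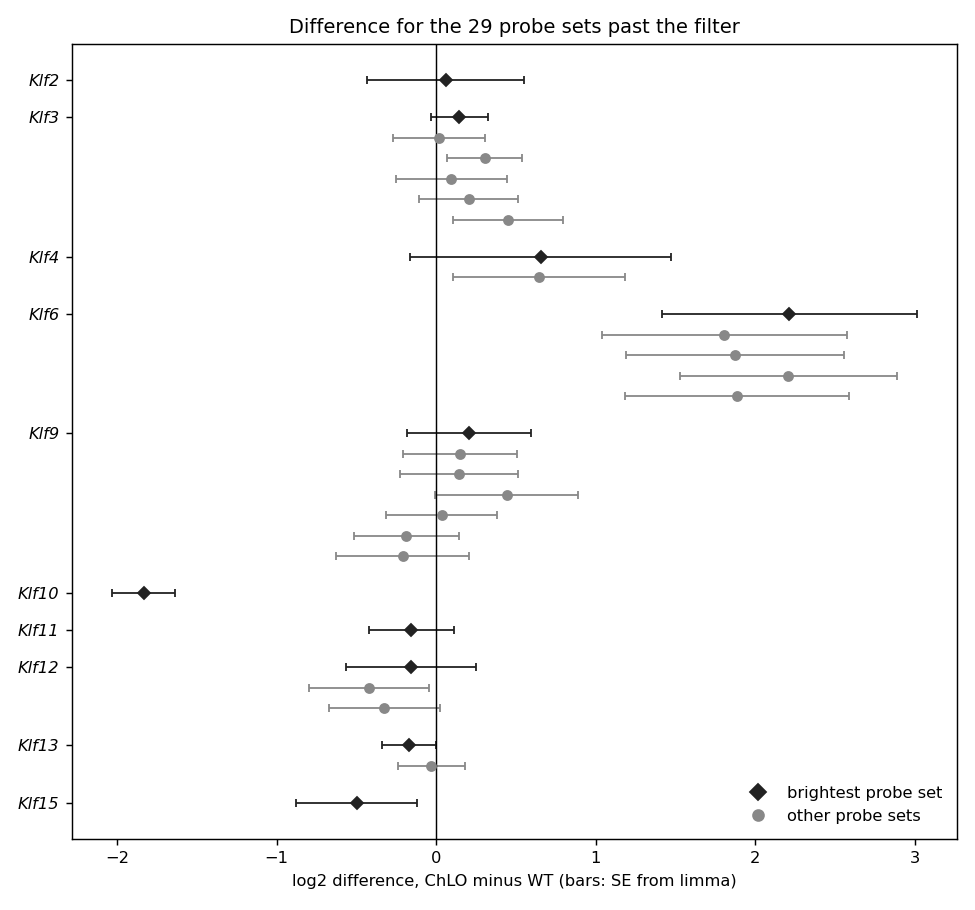
Log2 difference, ChLO minus WT (horizontal axis), with its standard error for each of the 29 probe sets of the 10 factors that passed the filter, grouped by gene. Diamonds mark the brightest probe set of a gene and circles the others. The 5 Klf6 probe sets lie between 1.81 and 2.21, the Klf10 probe set at -1.83, and the rest between -0.50 and 0.65.

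Klf6, an activator that is induced early in injured liver and in stellate cells, had the highest mean difference of the 10. It read 9.01, 7.68 and 8.17 in WT 1, 2 and 3 and 11.40, 11.70 and 8.41 in ChLO 1, 2 and 3. ChLO 1 and ChLO 2 stood more than 2 log2 units above every WT liver, while ChLO 3 lay inside the WT range, so the genotypes overlapped. The difference was 2.21 (SE 0.81, 95% interval 0.33 to 4.09), or 4.64-fold, with an unadjusted p of 0.0266 and a limma adjusted p of 0.506. All 5 probe sets showed the same order: in each, ChLO 1 and ChLO 2 lay above every WT array and ChLO 2 was the highest, and in 4 of the 5 ChLO 3 lay within the WT range. The 4 probe sets above the filter in both genotypes differed by 1.81 to 2.21, each with an unadjusted p under 0.05, beside 4.41% of all probe sets called higher, but they measure 1 gene in the same 6 livers. The fifth passed the filter only through ChLO (mean 6.82 against 4.94 in WT) and is no further support. Without ChLO 3 the difference was 3.26 (SE 0.37, adjusted p = 0.0134), where 1.6% of all genes were called higher. The unadjusted call was lost when ChLO 1, ChLO 2, WT 2 or WT 3 was left out, with differences of 1.77, 1.62, 1.91 and 2.15.

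The medians of stellate, myeloid and bile duct markers were high in the same 2 livers. All 12 markers of stellate cells and fibroblasts were higher in ChLO, 4 at an unadjusted p under 0.05. Set against WT, their median stood at 1.80, 1.89 and -0.01 for ChLO livers 1, 2 and 3, and it ran from -0.30 to 0.32 among the WT livers. Their summed linear signal ran from 9450 to 14708 in WT and from 11760 to 32285 in ChLO. Of 10 Kupffer and myeloid markers 8 were higher, with medians of 0.98, 0.76 and -0.14 in ChLO 1, 2 and 3 and a summed signal of 15153 to 16338 in WT and 14082 to 24512 in ChLO. Of these, Cd14, Ccr2, Cd68, Lyz2, Marco and Cd5l differed by 1.79, 1.55, 1.13, 0.79, 0.75 and 0.35, Adgre1 and Csf1r by 0.14 and 0.10, and Vsig4 and Clec4f by -0.06 and -0.14, with 0 at an unadjusted p under 0.05. The 6 bile duct markers tested had a summed signal of 290 to 440 in WT and 381 to 1614 in ChLO, with medians of 0.90, 1.11 and -0.03 in ChLO 1, 2 and 3. Of that sum in ChLO 1, Cldn4 alone made up 989. Cldn4 and Cldn7 passed the filter only through ChLO, with WT means of 5.38 and 5.25, so the number of bile duct markers that were higher is no support. The 4 lymphocyte markers tested, of which Il7r passed only through ChLO, had a summed signal of 306 to 443 in WT and 335 to 515 in ChLO, with medians of 0.40, 0.27 and 0.94 in ChLO 1, 2 and 3; 7 further ones were too dim or had no probe set. The dimmest tested markers of these lists, Timp1, Ccr2, Krt7 and Il7r, had means of 6.08, 7.22, 5.60 and 5.83, and none was at 0. The part of these cells in the Klf6 signal was not tested.

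**Figure D4:**
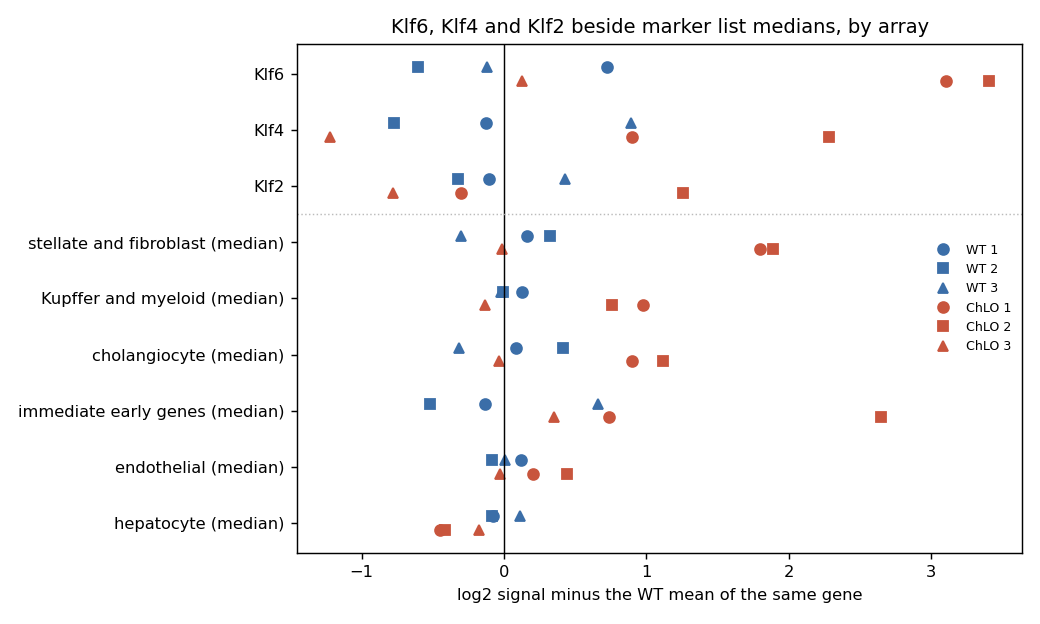
Log2 signal minus the WT mean (horizontal axis) on each of the 6 arrays for Klf6, Klf4 and Klf2, and below the dotted line the median over the genes of 6 lists. Klf6 and the stellate, myeloid and bile duct medians are high in ChLO 1 and ChLO 2 and near 0 in ChLO 3. ChLO 2 is the highest array for Klf6, Klf4, Klf2 and the stellate, bile duct, immediate early and endothelial medians, and ChLO 1 for the myeloid median.

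Klf4, found in endothelium, epithelium and monocytes and also an early response gene, read 7.24, 6.59 and 8.25 in WT and 8.26, 9.64 and 6.14 in ChLO. ChLO 2 was the highest and ChLO 3 the lowest of the 6, and the difference of 0.65 (SE 0.83) was smaller than the spread within ChLO (SD 1.76, n = 3). A second probe set gave 0.64 (SE 0.54) with the same highest array. Leaving out ChLO 2 turned the sign (-0.16), and leaving out ChLO 3 raised the difference to 1.59 (adjusted p = 0.168).

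Klf2, which blood flow induces in endothelial cells, read 8.75, 8.53 and 9.28 in WT and 8.55, 10.11 and 8.08 in ChLO. ChLO livers bounded the WT livers on both sides, and the means were alike at 8.85 ± 0.39 and 8.91 ± 1.07 (SD, n = 3 each), a difference of 0.06 with a 95% interval of -1.09 to 1.21. Without ChLO 2 the difference was -0.54. The member nearest to Klf4 in pattern was Klf2 (distance 0.65), while the nearest to Klf2 was Klf3 (0.52). Klf2 and Klf4 both had their highest reading in ChLO 2, as did Klf3 and Klf6. Of 12 endothelial markers 9 were higher and 3 lower, with a median of 0.20, and 1 was higher at an unadjusted p under 0.05 (Egfl7, 0.66). By array the median was 0.20, 0.45 and -0.03 in ChLO 1, 2 and 3, with a summed signal of 9239 to 10801 in WT and 9833 to 12943 in ChLO.

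Immediate early genes respond within minutes to handling, injury or growth factors. Of 17 tested, 14 had their highest reading in ChLO 2, where Klf2, Klf3, Klf4 and Klf6 also had theirs, and 3 had it in ChLO 1, Myc among them. The peak in ChLO 2 was not particular to this list. It was also seen for 8 of 12 stellate and fibroblast markers and 7 of 12 endothelial markers. The share of all genes with their highest reading in ChLO 2 was not counted. In all, 16 of the 17 immediate early genes were higher in ChLO and 1 lower, with a median of 1.23. At an unadjusted p under 0.05, 7 were higher and 0 lower. Egr2 passed the filter only through ChLO. Their median stood 0.74, 2.65 and 0.35 above WT for ChLO livers 1, 2 and 3, and the WT livers stood at -0.13, -0.52 and 0.66. Myc, a growth regulator, read 7.73, 8.00 and 7.62 in WT and 10.58, 9.87 and 9.16 in ChLO (2.09, SE 0.35), and Jun, a subunit of AP-1, was higher by 1.88 (SE 0.47) with no overlap. Fos and Egr1, named after their values were seen, were also high in WT 3 (13.31 and 14.28), far above WT 1 (8.42 and 8.56). Klf6 did not share that peak, at 8.17 in WT 3, while Klf4 and Klf2 had their highest WT reading there (8.25 and 9.28). So did Klf3, Klf9, Klf12, Klf13 and Klf15, whereas Klf6, Klf10 and Klf11 had theirs in WT 1. The labels do not say how long the tissue was handled before freezing, and its part in these values was not tested.

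The 5 genes nearest to Klf10 in pattern over the 6 arrays, by root mean square distance between log2 profiles centred on each gene's mean, were Mpp4 (0.15), Dntt (0.25), Rptn (0.26), Pygl (0.27) and Reck (0.32). All 5 were lower in every ChLO liver than in any WT liver, which nearness to Klf10 largely fixes. Pygl, the liver glycogen phosphorylase, read 14.63, 14.45 and 14.24 in WT and 12.92, 12.68 and 13.34 in ChLO. Mpp4, a scaffold protein known from photoreceptors, read 8.54, 8.37 and 8.64 in WT and 6.47, 6.71 and 6.55 in ChLO. Dntt, the template-independent DNA polymerase of lymphocyte precursors, Rptn, an epidermal matrix protein, and Reck, a membrane inhibitor of metalloproteinases, differed by -1.66 (SE 0.30), -1.46 (SE 0.35) and -1.41 (SE 0.29). Some of these signals were dim. In ChLO the means of Mpp4 and Dntt (6.58 and 6.39) lay among the array medians of 6.38 to 6.60, and that of Rptn (5.67) near the filter of 5.50. Among the members, the nearest to Klf10 was Klf15, but at 0.80, farther than any of these 5, and the farthest was Klf6, at 2.33.

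**Figure D5:**
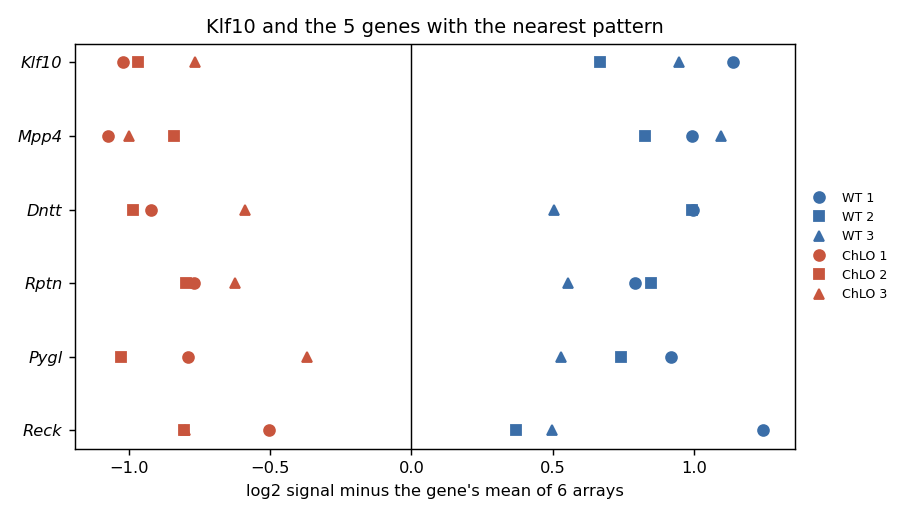
Log2 signal minus the mean of the 6 arrays (horizontal axis) for Klf10 and for the 5 genes with the smallest root mean square distance to it, 1 row per gene, with WT arrays in blue and ChLO arrays in red. In each row the 3 WT points lie right of 0 and the 3 ChLO points left of it, and the distance grows from 0.15 for Mpp4 to 0.32 for Reck.

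Other genes around these factors were read from lists of textbook function. ChREBP targets, to which Klf10 belongs by repute but which were listed here without it, were lower in 23 of 24 cases with a median of -2.15. Of these, 20 were lower at an unadjusted p under 0.05, beside 3.5% of all genes. The list counts Mlxipl, the deleted gene itself, and was chosen with earlier results of these data known, so its count is no support. Lpin1, which makes diacylglycerol for fat storage, differed by -2.60 (SE 0.26) and Rgs16, a brake on G protein signalling, by -3.84 (SE 0.40). Relative to the WT mean, the target medians lay at -1.69, -2.21 and -2.41 in ChLO 1, 2 and 3, farthest from WT in ChLO 3. Klf10 lay at -1.94, -1.88 and -1.68, nearest to WT in ChLO 3. For Klf6 and Klf15 ChLO 3 lay at the WT level. In gluconeogenesis 9 of 12 genes were lower with a median of -0.51, 5 of them at an unadjusted p under 0.05, among them G6pc, whose product releases free glucose (-3.27, SE 0.48), and Pcx, pyruvate carboxylase (-0.91, SE 0.16).

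Of 15 clock genes tested 12 were lower with a median of -0.28, 2 of them at an unadjusted p under 0.05, with 1 higher. Nr1d1, a repressor of the clock loop, passed the filter only through ChLO (mean 7.03 against 5.21 in WT). Nfil3, a repressor that opposes Dbp, read 9.77, 9.36 and 10.01 in WT and 8.91, 8.38 and 8.18 in ChLO (-1.22, SE 0.27), and Bhlhe40, a repressor of clock activation, differed by -0.76 (SE 0.22), both with no overlap. In the list of glucocorticoid response genes, of which Klf9 and Klf15 are textbook relatives, 7 of 12 were lower and 5 higher with a median of -0.14. At an unadjusted p under 0.05, 2 were lower and 3 higher, led by the metallothioneins Mt1 (3.26, SE 0.50) and Mt2 (3.15, SE 0.74), which bind zinc and also respond to metals. The list thus showed no common direction.

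TGF-beta signalling, which induces Klf10 and Klf11, held no gene with an unadjusted p under 0.05. Of 10 ligands, receptors and SMADs of TGF-beta signalling tested, 9 were higher and 1 lower, with a median of 0.14. By array, their median relative to WT was 0.50, 0.27 and -0.15 in ChLO 1, 2 and 3. Smad3, a signal transducer, read 9.12, 9.16 and 9.03 in WT and 9.64, 9.28 and 9.34 in ChLO, with no overlap (0.32, SE 0.19). Tgif1, a SMAD corepressor, differed by 0.48 (SE 0.30). Of 12 corepressors and coactivators of the family, 11 were higher and 1 lower, with a median of 0.19 and 0 at an unadjusted p under 0.05. Crebbp, a histone acetyltransferase, differed by 0.33 (SE 0.19) and Kat2b, another, by -0.29 (SE 0.18).

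The rest of the family gave no member with an unadjusted p under 0.05. Of the 6 further Krüppel-like factors tested, Klf7, Klf5, Klf17 and Klf1 were higher by 0.54 (SE 0.29), 0.47 (SE 0.45), 0.49 (SE 0.51) and 0.11 (SE 0.66), and Klf16 and Klf14 differed by -0.20 (SE 0.39) and -0.09 (SE 0.45). Klf17 passed the filter only through ChLO. Klf7 was the only one whose groups did not overlap, with means of 8.24 ± 0.51 in WT and 8.78 ± 0.22 in ChLO (SD, n = 3 each), and by a narrow margin, since WT 3 read 8.56 and ChLO 3 read 8.57. Among the related SP factors, Sp1, Sp5, Sp7, Sp3 and Sp4 were higher by 0.33 (SE 0.20), 1.24 (SE 0.90), 0.43 (SE 0.35), 0.22 (SE 0.20) and 0.20 (SE 0.66), and Sp6 differed by -0.45 (SE 0.41). The genotypes overlapped for all 6, including Sp1 and Sp3, ubiquitous factors that bind GC boxes. Sp8 lay below the filter at a mean of 4.23.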

How the data were processed

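The deposited values are log2 signals of 45101 probe sets, which the authors made with MAS5, per the submitters' processing notes. The linear trimmed mean was 500 on all 6 arrays, which fits global scaling; no genome build is named. Of the probe sets, 34945 had 1 gene symbol in the platform annotation, 932 several and 9160 none, beside 64 controls. Probe sets with a mean log2 signal below the 40th percentile (5.50) were left out, and each gene was represented by its brightest probe set. ChLO was compared with WT by limma 3.58.1 in R 4.3.3 (eBayes with trend, no block), with Benjamini-Hochberg adjustment over all 12598 genes. The procedure was tested on simulated data. Deviations of same-numbered arrays correlated at 0.30, -0.17 and 0.06, not all over 0.1, so numbers were not taken as pairs. Members and lists were chosen with earlier results of these data known. Named were all members, Mlxipl, the rest of the KLF and SP families, the 2 genes of smallest p in each other list, and the 5 genes nearest to Klf10; all further genes, single markers included, were picked with their values in view. The alternatives varied normalization, filter, floor, variance model, probe set choice, block and arrays.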

Additional observations from a re-analysis of the deposited data

How the results depend on the processing

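The number of members with an adjusted p under 0.05 was 0, and became 1 with no filter, with signals below a log2 of 4 set to 4, without probe sets ending in s or x, or at an adjusted p under 0.10, each time Klf10 (adjusted p 0.0375, 0.0492 and 0.0486 in the first 3). It was 2 (Klf6 and Klf10) with array weights, an estimate that stopped before it converged. Leaving out an array gave 0 to 2. At an unadjusted p under 0.05, 1 to 2 members were lower and 0 to 2 higher when an array was left out, and 2 were higher with array weights. Members lower with no overlap numbered 2, 2 to 4 with an array left out, and 1 with equal medians, spike-in scaling or the mean of all probe sets; higher ones numbered 0 to 2. With the replicate block, Klf10 had an adjusted p of 0.0533 and the member counts did not change; the context lists had 1 gene past the adjusted threshold under it. That count was 0 to 24 with an array left out and 2 with no filter. Context genes higher at an unadjusted p under 0.05 numbered 12, 20 with spike-in scaling and 7 to 20 with an array left out. Spike-in scaling moved the median difference of all genes from 0.06 to 0.31, and Klf11, Klf12 and Klf13 then read 0.10, 0.10 and 0.084, still below that median. Other signs that turned were those of Klf2 (-0.010 with quantile normalization, -0.54 to 0.48 with an array left out), Klf4 (-0.16 to 1.59), Klf9 (-0.15 to 0.54) and Klf12 (-0.47 to 0.30). Of 190 member values under alternatives, 171 kept direction and side of the threshold; Klf3, Klf6, Klf10 and Klf15 kept their direction in all. The cause of these shifts was not tested, and 3 arrays per group limit the precision.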
